A study of Mus musculus with 9 samples.

Results

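Mice have a family of immunity-related GTPases (IRG) and a family of guanylate-binding proteins (GBP), both of which are strongly induced by interferon gamma. The 10 genes described here are the IRG genes Tgtp1, Tgtp2, Irgm1, Irgm2, Igtp and Iigp1 and the GBP genes Gbp2, Gbp3, Gbp5 and Gbp7. They were found by gene symbol, and all 10 were among the 19517 genes of the table. They were chosen by name with their log2 fold changes in all 3 comparisons already known, so these values are a description and give no support to a claim about the families. RNA-seq was done on the ovaries of BALB/c nude mice, all of them female and bearing xenografts of MDA-MB-231, which is a line of human breast cancer cells. The 9 libraries form 3 groups of 3. CTX mice received cyclophosphamide, an alkylating chemotherapy drug, CAU mice received caulerpin, an alkaloid of green algae, and UT mice received no treatment. The labels of the CAU group do not say whether cyclophosphamide was given as well, and no label gives a dose, an age or a time. Nude mice lack a thymus and so most mature T cells, while they keep macrophages and natural killer (NK) cells. The labels number the libraries as replicates without naming separate mice. The p-values therefore reflect only how these samples varied, and part of that may be technical.

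IRG and GBP proteins are GTPases of the interior of the cell that defend it against bacteria and protozoa enclosed in vacuoles. Interferon gamma, released mainly by NK and T cells, binds a receptor that signals through the kinases JAK1 and JAK2. Promoters of genes induced in this way often hold a gamma-activated site (GAS) or an interferon-stimulated response element (ISRE), the second of which is bound by IRF1 among others. IRG proteins fall into effectors, which load onto the vacuole (here Tgtp1, Tgtp2 and Iigp1), and regulators of the IRGM type (Irgm1, Irgm2 and Igtp), which hold the effectors inactive on the cell's own membranes. GBPs assemble on the vacuole and on released bacteria and take part in inflammasome activation.

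The promoter stretches are shown because both binding motifs can be read in them. GAS was searched as TTCNNNGAA, which is its own reverse complement. ISRE was searched as GAAA, any 2 bases and GAAA again, or as its reverse complement, TTTC, any 2 bases and TTTC. The RefSeq promoter windows of build GRCm38.p6 run from 250 bases before to 50 bases after each annotated start, and 9 of the 10 genes had one. Each line gives bases -110 to -11 from the start, 5′ to 3′ in the direction of the gene, with every base of a GAS or ISRE match in capitals.
Tgtp1, chr11:48992257-48992356, minus strand: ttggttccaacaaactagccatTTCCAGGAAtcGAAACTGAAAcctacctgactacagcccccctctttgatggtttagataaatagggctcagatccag
Tgtp2, chr11:49064223-49064322, minus strand: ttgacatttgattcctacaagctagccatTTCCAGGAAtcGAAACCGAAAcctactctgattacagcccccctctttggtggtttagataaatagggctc
Igtp, chr11:58199446-58199545, plus strand: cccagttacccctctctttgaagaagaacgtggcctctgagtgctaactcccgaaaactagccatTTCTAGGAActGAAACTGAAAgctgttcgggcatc
Irgm2, chr11:58214867-58214966, plus strand: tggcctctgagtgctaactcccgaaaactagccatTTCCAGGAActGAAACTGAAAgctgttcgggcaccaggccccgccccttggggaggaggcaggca
Irgm1, chr11:48871431-48871530, minus strand: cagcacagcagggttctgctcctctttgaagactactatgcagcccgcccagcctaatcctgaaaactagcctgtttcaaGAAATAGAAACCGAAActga
Gbp2, chr3:142620553-142620652, plus strand: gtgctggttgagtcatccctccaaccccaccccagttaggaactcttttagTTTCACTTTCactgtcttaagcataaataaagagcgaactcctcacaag
Gbp3, chr3:142559934-142560033, plus strand: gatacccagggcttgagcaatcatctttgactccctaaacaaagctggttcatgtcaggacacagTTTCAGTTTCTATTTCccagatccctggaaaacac
Gbp5, chr3:142496824-142496923, plus strand: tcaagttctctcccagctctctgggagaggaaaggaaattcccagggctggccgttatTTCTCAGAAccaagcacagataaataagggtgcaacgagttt
Gbp7, chr3:142530226-142530325, plus strand: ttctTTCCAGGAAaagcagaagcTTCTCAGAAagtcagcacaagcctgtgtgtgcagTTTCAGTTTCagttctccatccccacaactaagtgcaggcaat

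All 9 genes had an ISRE match in a window, against 3.99% of the 27025 genes with a window of the same length. For Gbp5 it lay at -165, outside the stretch printed. Gbp3 had a second window, from another annotated start, with no match. A GAS match was present for 6 genes (Tgtp1, Tgtp2, Igtp, Irgm2, Gbp5 and Gbp7), against 9.55% of the 27025 genes. Among 8 related GTPase genes outside the 10 that had a window, 4 had an ISRE match and 2 a GAS match. In Tgtp1, Tgtp2, Igtp and Irgm2 the GAS ended 2 bases before an ISRE, with first bases at -88, -81, -45 and -75. That arrangement was found in 5 of all 32851 windows of the same length (0.0152%), and the fifth belonged to Gm12185, another IRG gene. In Irgm1 and Gbp3 a pair of ISRE matches overlapped each other. A match is a run of letters and does not show binding.

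**Figure D1:**
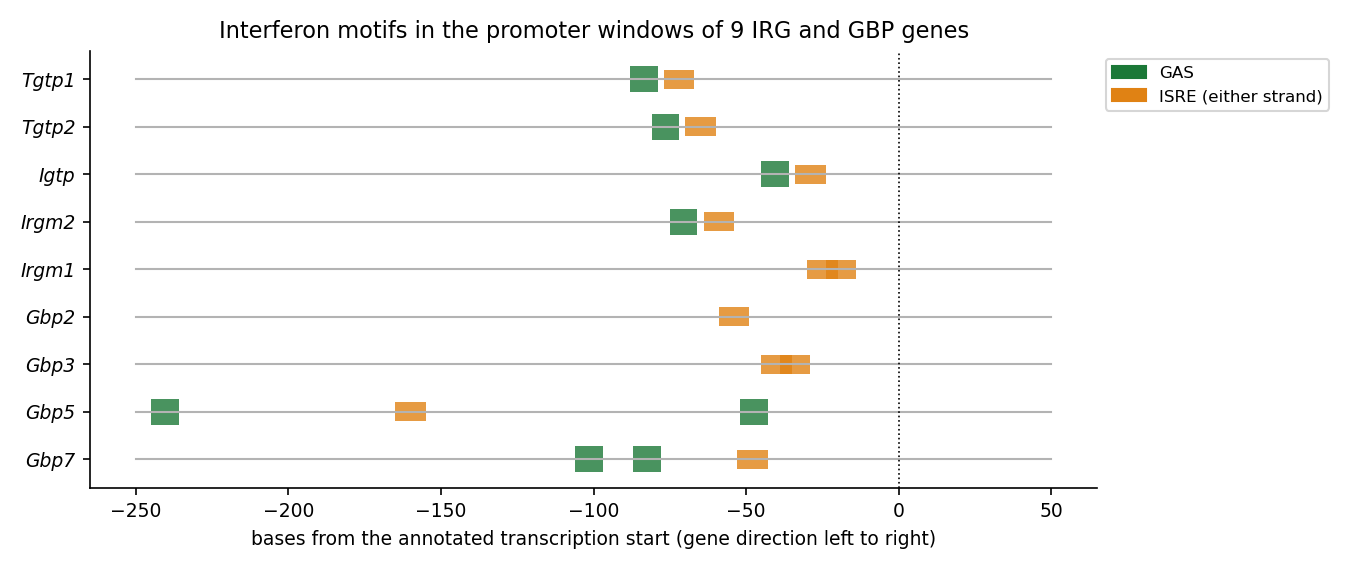
Positions of GAS (green) and ISRE (orange) matches in the promoter windows of 9 IRG and GBP genes; the x axis is the distance in bases from the annotated start and each grey line is 1 window. The GAS and ISRE of Tgtp1, Tgtp2, Igtp and Irgm2 lie side by side at the same spacing, between -88 and -25.

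All fold changes below are taken over from the authors' deposited table, where each comparison has a log2 fold change with the p-value and adjusted p of DESeq2. The table holds no value per library or per group, so neither levels nor the overlap of single libraries can be shown, and the sequencing depth is unknown here. The standard error (SE) of each log2 fold change is the one its p-value implies. A gene with an adjusted p under 0.05 is called changed. The headers do not state the numerator; each column was read as the second group named over the first. With that reading Cdkn1a, the p21 gene that DNA damage induces, was higher in CTX ovaries, at 1.99 (SE 0.32, adjusted p = 9.15e-07) per the authors' deposited table. The opposite reading would turn all directions. In bulk tissue, fewer cells of a type and less RNA per cell cannot be told apart.

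Compared with UT ovaries, CTX ovaries had lower values of 5 of the 10 genes, namely Tgtp1, Tgtp2, Igtp, Iigp1 and Gbp2, and none was called higher. Over all genes 1.29% were called in this comparison, 0.82% lower and 0.472% higher. At an unadjusted p under 0.05, 9 of the 10 were lower, beside 5.79% lower and 4.42% higher over all genes. All 10 log2 fold changes were negative, with a median of -0.73, beside a median of -0.03 over all 19260 genes tested. They ranged from -1.95 for Tgtp1 to -0.03 for Gbp7.

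Among the effector IRGs, Tgtp1 fell by 1.95 on the log2 scale per the authors' deposited table (SE 0.32, adjusted p = 1.17e-06), which is a 3.86-fold lower value in CTX ovaries. Iigp1, which coats vacuoles of Toxoplasma in mouse cells, fell by 1.03 (SE 0.18, adjusted p = 1.01e-05) per the authors' deposited table. Tgtp2 fell by 0.89 (SE 0.21, adjusted p = 0.00314) per the authors' deposited table. Tgtp1 had the lowest value of the 10 genes, and its 95% interval (-2.57 to -1.33) did not overlap that of Tgtp2 (-1.30 to -0.49).

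That difference between Tgtp1 and Tgtp2 is uncertain. Their coding sequences of 1245 bases differed at 4 positions, which makes them 99.7% identical, with a longest shared run of 510 bases. Counted from 1 at the A of the start codon, with the base of Tgtp1 first, the differences were G270C, C408T, C729T and C735A. Reads from stretches that the genes share cannot be assigned to one of them by sequence, and the table does not show how such reads were divided. Read length and the untranslated parts were not taken into account. No other pair among the 10 was nearly so alike over the whole coding sequence, the next being Gbp3 and Gbp7 at 76.6%. Even so, Igtp and Irgm2 shared an identical run of 141 bases, and Gbp3 and Gbp7 one of 123. Reads lying wholly within such a run could not be assigned by sequence either. Gbp2 was nearest to Gbp2b, which is not among the 10, at 82.5%.

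Of the regulatory IRGs, Igtp, also named Irgm3, was called lower in CTX ovaries, at -0.70 (SE 0.17, adjusted p = 0.00521) per the authors' deposited table. Irgm2 was at -0.53 (SE 0.18, adjusted p = 0.109) per the authors' deposited table. Irgm1, whose loss in mice disturbs both defence and autophagy, was at -0.36 (SE 0.14, adjusted p = 0.234) per the authors' deposited table. Neither Irgm1 nor Irgm2 passed the threshold, although the 95% intervals of both, -0.64 to -0.09 and -0.87 to -0.19, lay below 0. The 3 effector genes had lower values than the 3 regulators, and the difference between the roles was not tested.

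Of the 4 GBP genes, 1 was called, and their values ranged from -0.82 to -0.03. Gbp2, a lipid-anchored GBP that gathers on Toxoplasma vacuoles, was called lower in CTX ovaries at -0.82 (SE 0.23, adjusted p = 0.0320) per the authors' deposited table, which is 1.77-fold. Gbp5, linked to activation of the NLRP3 inflammasome, had a similar value of -0.76 (SE 0.25) without passing (adjusted p = 0.117) per the authors' deposited table. Gbp3 was at -0.33 (SE 0.15, adjusted p = 0.392) per the authors' deposited table. Gbp7 was at -0.03 (SE 0.12, adjusted p = 0.978) per the authors' deposited table, with a 95% interval of -0.26 to 0.20. That interval holds no fall as large as the value of Gbp2, a gene of the same cluster on chromosome 3. Gbp7 had the value nearest to 0 of the 10, and its promoter window held a pair of GAS matches and an ISRE match.

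Compared with CTX ovaries, CAU ovaries had higher values of Tgtp1, and it was the only one of the 10 genes called. Over all genes 0.442% were called in this comparison, 0.312% higher and 0.13% lower. At an unadjusted p under 0.05, 4 of the 10 were higher, beside 3.32% higher and 2.04% lower over all genes. Tgtp1 was 2.85-fold higher in CAU ovaries per the authors' deposited table (1.51 on the log2 scale, SE 0.40, adjusted p = 0.0394). All 10 log2 fold changes were positive, from 0.11 for Gbp7 to 1.51 for Tgtp1. Their median was 0.38, beside 0.00 over all 19245 genes tested. This comparison and that of CTX with UT share the CTX libraries, so opposite signs in them are not independent.

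Apart from Tgtp1, the effector IRGs were again at the far end. Tgtp2 was at 1.22 (SE 0.46, adjusted p = 0.452) and Iigp1 at 1.10 (SE 0.40, adjusted p = 0.408) per the authors' deposited table. The 95% intervals of these genes, 0.32 to 2.12 and 0.31 to 1.89, lay above 0 although neither passed. Igtp was at 0.60 (SE 0.29, adjusted p = 0.826), Irgm1 at 0.35 (SE 0.18, adjusted p = 0.935) and Irgm2 at 0.14 (SE 0.19) per the authors' deposited table. The 4 GBP genes lay in a narrow band, at 0.40 for Gbp5, 0.37 for Gbp3, 0.27 for Gbp2 and 0.11 for Gbp7 per the authors' deposited table, none with an unadjusted p under 0.05. The SE was larger than in CTX against UT for 9 of the 10 genes, Gbp2 being the exception, while this held for 39.2% of all genes. For Iigp1 the log2 fold changes had nearly the same size in both comparisons, and the SE was 0.40 in CAU against CTX and 0.18 in CTX against UT.

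Compared with UT ovaries, CAU ovaries differed in none of the 10 genes by the authors' DESeq2 adjusted p. Over all genes 0.0518% were called, 0.0207% lower and 0.0311% higher. At an unadjusted p under 0.05 there was 1 gene, Gbp2, at -0.54 (SE 0.24, p = 0.0239) per the authors' deposited table, beside 2.26% lower and 1.2% higher over all genes. The median of the 10 was -0.05, with 6 negative and 4 positive. The values were -0.43 (SE 0.41) for Tgtp1, -0.38 (SE 0.24) for Irgm2 and -0.35 (SE 0.38) for Gbp5 per the authors' deposited table. Tgtp2 was on the other side at 0.33 (SE 0.47) per the authors' deposited table, and the other 5 genes lay between -0.09 and 0.09. These values do not show that CAU and UT ovaries were alike. The 95% intervals of the 10 reached down to -1.24 for Tgtp1 and up to 1.26 for Tgtp2.

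**Figure D2:**
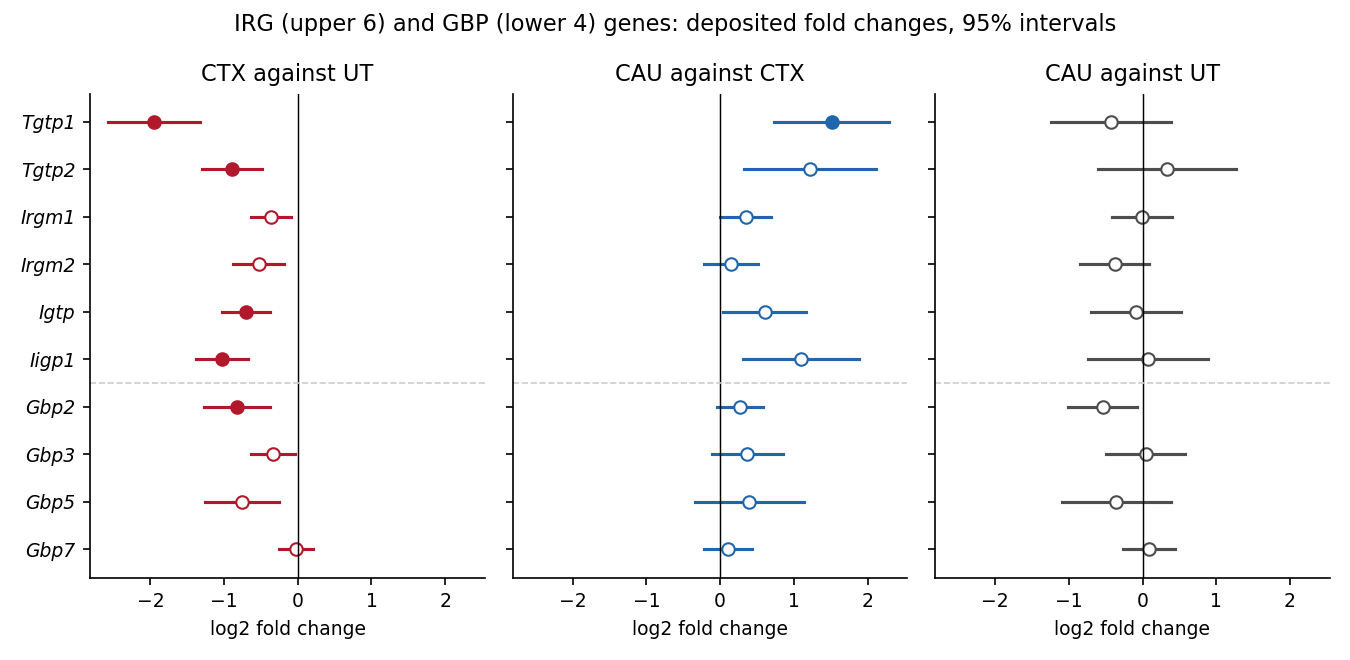
Log2 fold changes of the 10 genes in CTX against UT, CAU against CTX and CAU against UT, from the authors' deposited table; lines are 95% intervals from the implied SE, filled points have an adjusted p under 0.05, and the dashed line parts IRG from GBP genes. All 10 points lie below 0 in CTX against UT and above 0 in CAU against CTX, while in CAU against UT only the interval of Gbp2 leaves out 0.

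The 10 genes lie in 4 clusters of GRCm38.p6, by RefSeq. Irgm1, Tgtp1 and Tgtp2 share a stretch of chromosome 11 with Ifi47 (chr11:48865245-49096987), and Igtp and Irgm2 a second one with Gm12250 (chr11:58183843-58222783). Gbp5, Gbp7, Gbp3 and Gbp2 stand in that order on chromosome 3, with Gbp2b before Gbp2 (chr3:142496934-142638008). Iigp1 is on chromosome 18, beside Gm4951 and F830016B08Rik. A further GBP cluster, with none of the 10, is on chromosome 5 (chr5:105012513-105295871).

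Some GTPase genes outside the 10 were also called lower in CTX than in UT ovaries. Of 27 further symbols listed by family name, 17 were in the table, 7 were called lower and none higher, beside 0.82% called lower over all genes. Their median was -0.79, with 14 negative and 3 positive. All 5 genes of the chromosome 5 cluster were negative, and 4 of them were called. In the authors' deposited table these were Gbp4 at -1.01 (SE 0.23, adjusted p = 0.00255), Gbp9 at -0.68 (SE 0.15, adjusted p = 0.000768), Gbp6 at -0.76 (SE 0.18, adjusted p = 0.00369) and Gbp10 at -1.17 (SE 0.31, adjusted p = 0.0183). Gbp6 and Gbp10 are 98.4% identical in coding sequence, so the split between them is uncertain. Gbp8, of the same cluster, was at -1.19 (SE 0.50, adjusted p = 0.313) per the authors' deposited table. Gbp2b, of the chromosome 3 cluster, was at -0.80 (SE 0.26, adjusted p = 0.0978) per the authors' deposited table.

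Of the IRG genes outside the 10, Ifi47, also named Irgd, was called lower at -0.79 (SE 0.16, adjusted p = 0.000296) per the authors' deposited table, and no GAS or ISRE match was in its window. Gm4951, also named Ifgga2, was called lower at -1.08 (SE 0.22, adjusted p = 0.000266) per the authors' deposited table. Gm12250, the Irgb10 gene, whose protein acts with GBPs on bacterial membranes, was at -0.95 (SE 0.33, adjusted p = 0.147) per the authors' deposited table. Gm12185 was positive at 0.44 (SE 0.43) per the authors' deposited table, and its promoter window held a GAS and an ISRE in the same arrangement as that of Tgtp1. Gm5431 was at -0.26 (SE 0.37) and F830016B08Rik at -0.25 (SE 0.23) per the authors' deposited table. The table gave 9930111J21Rik1 and 9930111J21Rik2 values of -0.99 and -0.58, with SEs of 1.17 and 1.12, per the authors' deposited table. Irgq, a distant relative on chromosome 7, was at 0.14 (SE 0.09) per the authors' deposited table.

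The list also held Gvin1 and Gm4070, which RefSeq both give the synonym VLIG-1, for very large inducible GTPase, and which are neither IRG nor GBP. Gm4070 was called lower in CTX against UT, at -1.06 (SE 0.22, adjusted p = 0.000361) per the authors' deposited table. It was also called higher in CAU against CTX, at 0.73 (SE 0.18, adjusted p = 0.0138) per the authors' deposited table. Gvin1 was at 0.52 (SE 1.92) in CTX against UT per the authors' deposited table, too imprecise to place. Gm4070 was the only one of the 17 called in CAU against CTX, beside 0.312% called higher over all genes. At an unadjusted p under 0.05, 8 of the 17 were higher, beside 3.32% over all genes. The median of the 17 in that comparison was 0.68, with 14 positive. In CAU against UT the authors' DESeq2 adjusted p called 0 of the 17, also 0 at an unadjusted p under 0.05, and their median was -0.06.

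Genes next to the clusters were taken as the nearest 2 protein-coding genes on each side, plus any inside, that are in the table and not listed. By the authors' DESeq2 adjusted p, none of these 22 neighbours was called in CTX against UT or in CAU against CTX. The shares called over all genes were 1.29% and 0.442%, and none of 22 is near them. At an unadjusted p under 0.05, all genes had 5.79% lower and 4.42% higher in CTX against UT, and 2.04% and 3.32% in CAU against CTX. Of the 22 neighbours, 2 had such a p in each comparison. In both comparisons 1 of these 2 was Gm4841, inside the chromosome 18 cluster, which is itself an IRG gene (also named Ifgga3), at -1.02 and 1.16 per the authors' deposited table. The other in CTX against UT was Btnl9, after the first chromosome 11 cluster, at -1.32 (SE 0.65, adjusted p = 0.46) per the authors' deposited table. In CAU against CTX it was Pdlim5, before the chromosome 3 cluster, at 0.27 (SE 0.13, adjusted p = 0.826) per the authors' deposited table. Both were named after their values were seen. The medians of the 22 were -0.05 and 0.03. In CTX against UT they ranged from -1.72 (Olfr1396, SE 1.61) to 0.31. Among those near 0 there were Kyat3, after the chromosome 3 cluster, at -0.06 (SE 0.13), and Mrpl22, before the second chromosome 11 cluster, at 0.12 (SE 0.14), per the authors' deposited table.

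**Figure D3:**
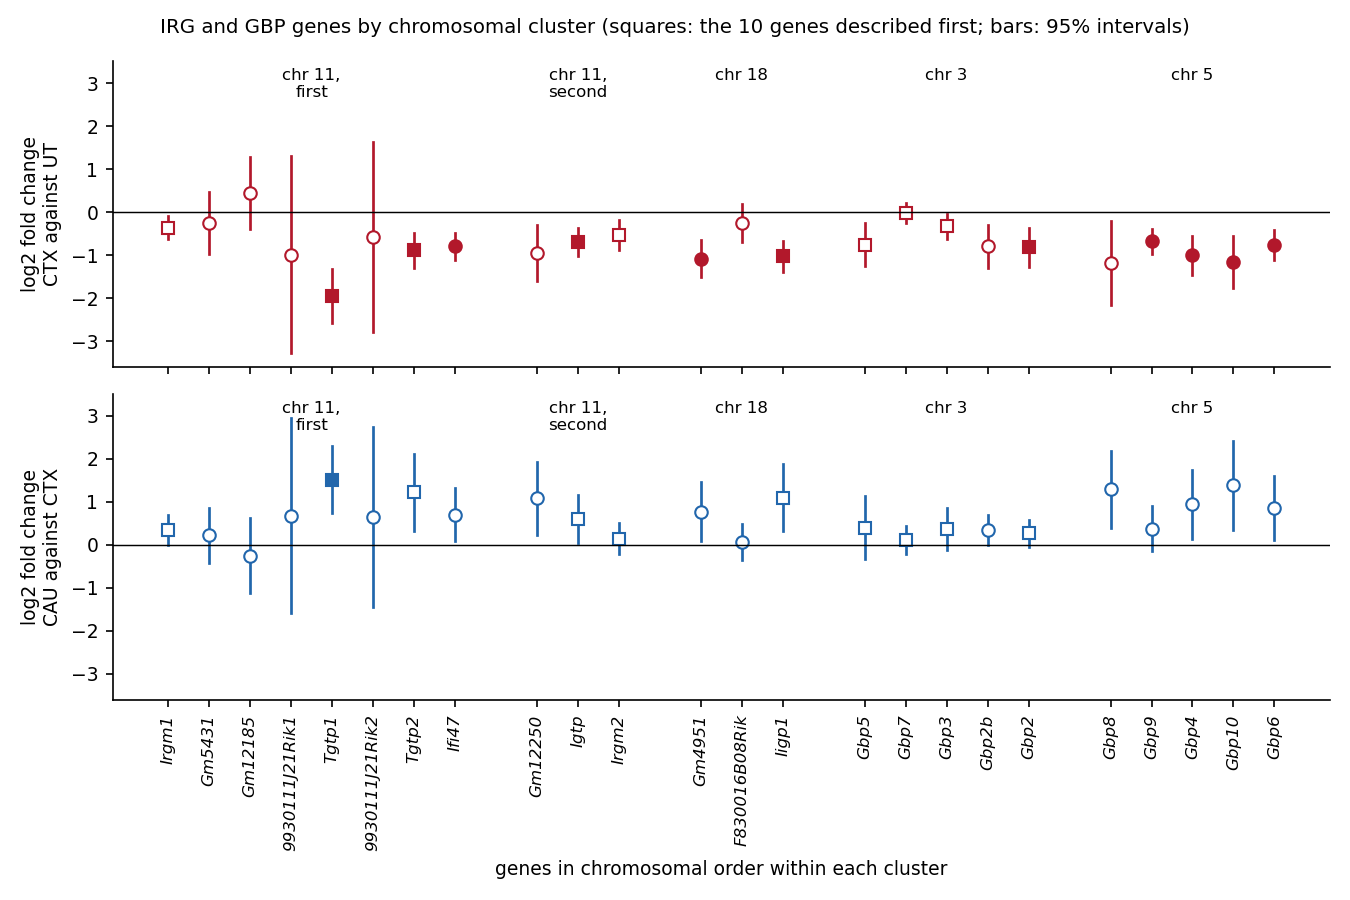
Log2 fold changes of the IRG and GBP genes in chromosomal order within their clusters, in CTX against UT (upper panel) and CAU against CTX (lower panel), from the authors' deposited table; squares are the 10 genes, circles are other family genes, bars are 95% intervals and filled symbols have an adjusted p under 0.05. In the upper panel every cluster has at least 1 filled symbol below 0, and Gm12185 is the only symbol above 0; in the lower panel Tgtp1 is the only filled symbol.

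Upstream of these genes, no gene of interferon gamma signalling passed the threshold in CTX against UT. None of 10 genes was called by the authors' DESeq2 adjusted p, which is near the 1.29% called over all genes. The list reached beyond the receptor and its kinases, and also held Irf8, Irf9 and Stat2. At an unadjusted p under 0.05, 3 were lower (Irf1, Irf8 and Irf9) and 1 higher (Jak1), beside 5.79% lower and 4.42% higher over all genes. Irf8 and Irf9, named after their values were seen, were at -0.56 (SE 0.19, adjusted p = 0.119) and -0.33 (SE 0.14, adjusted p = 0.299) per the authors' deposited table. The median of the 10 was -0.24. Ifng, the ligand itself, was at -0.98 with an SE of 4.08 per the authors' deposited table, so its direction cannot be read. The receptor genes Ifngr1 and Ifngr2 were at -0.30 (SE 0.18) and 0.02 (SE 0.08) per the authors' deposited table. The kinase gene Jak1 was at 0.37 (SE 0.11, adjusted p = 0.0675) and Jak2 at -0.13 (SE 0.17) per the authors' deposited table. Irf1, a transcription factor itself induced by interferons, was at -0.28 (SE 0.09, adjusted p = 0.0916) per the authors' deposited table. In CAU against CTX none of the 10 was called and 1 was higher at an unadjusted p under 0.05, beside 0.442% and 3.32% over all genes. The median of the 10 was 0.05. Irf8 was at 0.42 (SE 0.22) and Irf9 at 0.18 (SE 0.13) in that comparison per the authors' deposited table. The other genes named here, apart from Ifng, lay near 0 there. Irf1 was at -0.04 (SE 0.10), Ifngr1 at 0.01 (SE 0.10) and Ifngr2 at -0.04 (SE 0.07) per the authors' deposited table. Jak1 was then at -0.15 (SE 0.12), Jak2 at 0.00 (SE 0.11) and Ifng at 0.96 (SE 4.08) per the authors' deposited table.

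None of 6 inhibitors of the pathway was called in CTX against UT, beside 1.29% called over all genes. At an unadjusted p under 0.05, 1 was lower, beside 5.79% over all genes, and the median was -0.02. Pias1 was at -0.03 (SE 0.08) per the authors' deposited table. None of 9 genes for induction of interferon gamma was called there either, beside the same 1.29%. At an unadjusted p under 0.05, 2 were lower, beside the same 5.79% (median -0.96, median SE 0.76). These 2, named after their values were seen, were Il18rap at -2.48 (SE 0.83, adjusted p = 0.12) and Il18r1 at -1.66 (SE 0.76, adjusted p = 0.405) per the authors' deposited table. Of the 9, 7 were negative and 2 positive. Il12rb2, an interleukin-12 receptor chain and 1 of the 2 positive genes, was at 0.08 (SE 0.20) per the authors' deposited table. Of 19 other targets of interferon gamma, 2 were called lower and none higher, beside 0.82% called lower over all genes, with 17 negative and a median of -0.47. These were Ciita, the master regulator of MHC class II genes, at -1.22 (SE 0.31, adjusted p = 0.0109) and Parp14 at -0.44 (SE 0.11, adjusted p = 0.00810) per the authors' deposited table. In CAU against CTX none of the 19 passed, also at an unadjusted p under 0.05, while 18 were positive (median 0.39). All genes had 0.442% called there and 3.32% higher at an unadjusted p under 0.05. Of the 9 genes for induction of interferon gamma, none was called there either. Their median was 0.66, with 7 positive, and 1 (Il18rap) was higher at an unadjusted p under 0.05.

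Of 18 genes that respond mainly to type I interferon, 3 were called lower in CTX against UT and none higher, beside 0.82% lower over all genes, with a median of -0.54. These were Ifi44 at -1.18 (SE 0.19, adjusted p = 9.99e-07), Oasl2 at -0.67 (SE 0.15, adjusted p = 0.00246) and Xaf1 at -0.53 (SE 0.13, adjusted p = 0.00944) per the authors' deposited table. Their median in CAU against CTX was 0.46, with none called by the authors' DESeq2 adjusted p, and 6 higher and 1 lower at an unadjusted p under 0.05. The matching shares over all genes were 0.442% called, 3.32% higher and 2.04% lower. The 1 lower gene, named after its value was seen, was Oas1a at -2.47 (SE 0.74, adjusted p = 0.123) per the authors' deposited table, while all 10 IRG and GBP genes were positive. A difference between these genes and the GTPases was not tested.

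Genes whose products work with the GTPases in the cell included none that was called. Of 10 genes of the ATG8 lipidation system, which IRGs and GBPs need to reach their targets, none was called in CTX against UT, also at an unadjusted p under 0.05. Their median was -0.09. All genes had 1.29% called there, with 5.79% lower and 4.42% higher at an unadjusted p under 0.05. Map1lc3b, an ATG8 protein, was at -0.08 (SE 0.07) per the authors' deposited table. None of 7 inflammasome genes was called in CTX against UT by the authors' DESeq2 adjusted p, beside the same 1.29% over all genes (median -0.37). The 2 that were lower at an unadjusted p under 0.05, named after their values were seen, were Casp4 at -1.64 (SE 0.63, adjusted p = 0.226) and Il1b at -1.36 (SE 0.50, adjusted p = 0.180) per the authors' deposited table. Gsdmd, the pore-forming gasdermin D, was at -0.18 (SE 0.14) per the authors' deposited table.

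Markers of white blood cells moved in the same comparisons. Of 15 macrophage genes, 6 were called lower in CTX than in UT ovaries, beside 0.82% over all genes, and all 15 were negative (median -0.96). Of 13 T and NK cell genes, 2 were called lower and 12 were negative (median -2.22, median SE 1.12). Csf1r, the macrophage growth factor receptor, was at -1.29 (SE 0.18, adjusted p = 1.16e-09) and C1qb, a complement gene of macrophages, at -0.96 (SE 0.16, adjusted p = 4.13e-06) per the authors' deposited table. C1qc and C1qa, of the same complex, were at -0.96 and -1.09 (adjusted p = 0.000183 and 0.000676) per the authors' deposited table. Ncr1, an NK cell receptor, was at -3.21 (SE 0.70, adjusted p = 0.00123) and the granule protease gene Gzma at -4.13 (SE 1.15, adjusted p = 0.0300) per the authors' deposited table. In CAU against CTX, 2 macrophage genes (C1qb and C1qc) and 3 T and NK cell genes (Ncr1, Gzma and Gzmb) were called higher, beside 0.312% over all genes, with medians of 0.30 and 1.47. Gzmb was at 6.03 (SE 1.60, adjusted p = 0.0410) in that comparison per the authors' deposited table. The T cell markers of the list (Cd3d, Cd3e, Cd3g, Cd4 and Cd8a) were called in neither comparison. In CTX against UT, Cd8a was at 0.02 (SE 0.37), Cd4 at -0.45 (SE 0.34) and Cd3d at -0.14 (SE 1.01). In CAU against CTX these were at 0.03 (SE 0.34), -0.31 (SE 0.39) and 0.12 (SE 1.08). The SEs of Cd3e and Cd3g were 1.74 and 1.32, then 1.81 and 2.26, all per the authors' deposited table. The part of these cells in the values of the GTPases was not tested, and the table gives no level of any marker.

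Granulosa cell genes were higher in CTX against UT where they passed, and surface epithelium genes lower. The 10 granulosa cell genes were all positive (median 0.52), and 3 were called higher, beside 0.472% over all genes. These were Inhbb at 1.00, Fst at 0.67 and Inhba at 1.20 per the authors' deposited table, which encode subunits of inhibin and activin and the activin antagonist follistatin. The 10 endothelial genes had a median of -0.17, and none was called by the authors' DESeq2 adjusted p, beside 1.29% over all genes. At an unadjusted p under 0.05, 3 were lower, beside 5.79% over all genes. Kdr was at -0.27 (SE 0.09) per the authors' deposited table. The 9 genes of the surface epithelium were all negative (median -1.27), and 1 was called lower, beside 0.82% over all genes. This was Upk3b at -1.27 (SE 0.32, adjusted p = 0.0111) per the authors' deposited table. In CAU against CTX these 9 genes were all positive (median 0.78), with none called by the authors' DESeq2 adjusted p and 5 higher at an unadjusted p under 0.05. The matching shares over all genes were 0.442% called and 3.32% higher. Among the 10 granulosa cell genes 1, Inhbb, was then called lower, beside 0.13% over all genes, and the median was -0.16. Inhbb was at -0.47 (SE 0.09, adjusted p = 0.000565) per the authors' deposited table. The part of these cell types in the values of the GTPases was not tested either.

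**Figure D4:**
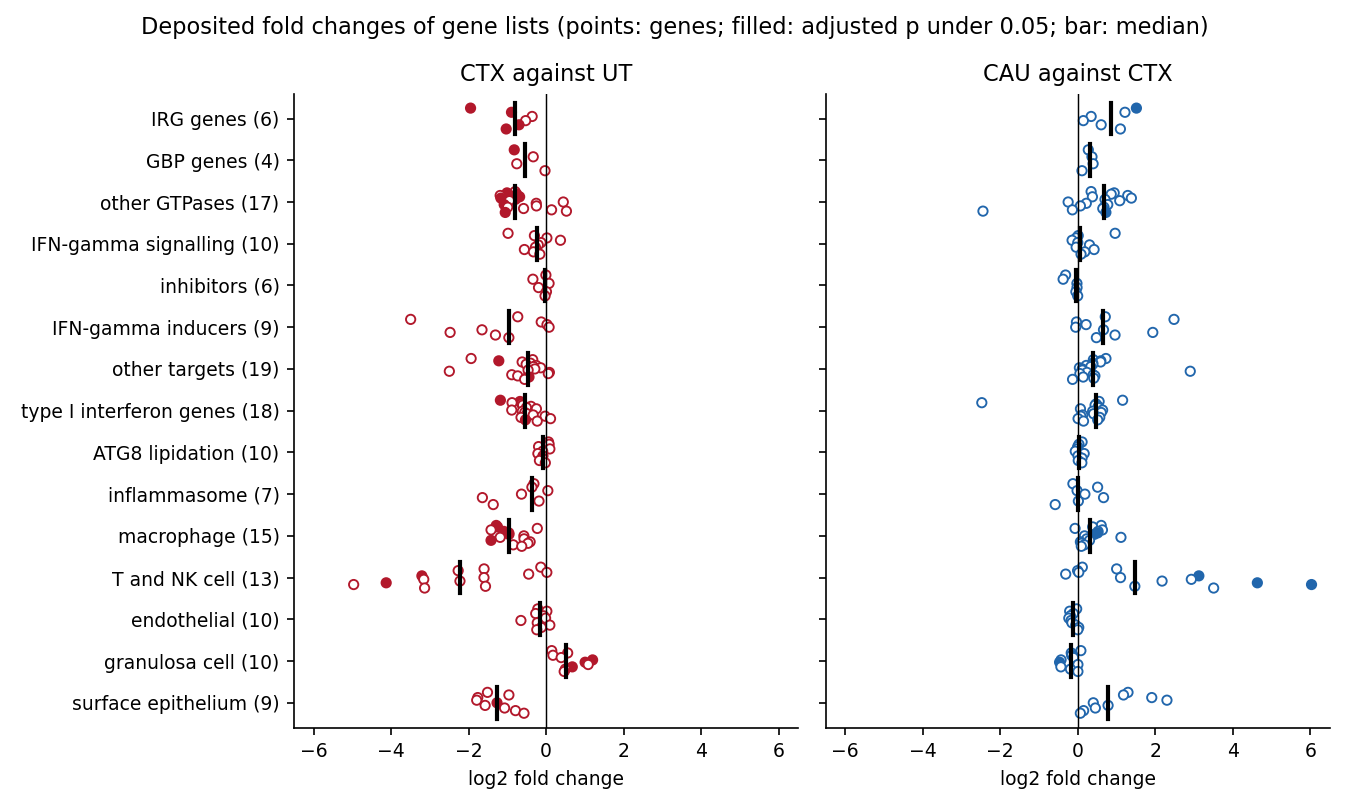
Log2 fold changes of the genes of 15 lists in CTX against UT (left) and CAU against CTX (right), from the authors' deposited table; each point is a gene, filled where the adjusted p is under 0.05, the black bars are medians, and the number of genes stands in parentheses. The IRG median is -0.80 at left and 0.85 at right, the GBP median -0.55 and 0.32, and the signalling and inhibitor lists have medians between -0.24 and 0.05.

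Genes with the pattern most like that of the 10 were sought by the distance of their log2 fold changes in CTX against UT and CAU against CTX from the medians of the 10. The search covered 11586 genes outside all lists whose SE was no larger than the largest among the 10 in both comparisons. The 5 nearest over these 2 comparisons were Fzd6 (distance 0.02), Niban1 (0.05), H2-T23 (0.06), Arhgdib (0.06) and Cldn11 (0.06). H2-T23, which encodes the nonclassical MHC class I molecule Qa-1, was the only one called in CTX against UT, at -0.71 (SE 0.13, adjusted p = 1.04e-05) per the authors' deposited table. None of the 5 was called in CAU against CTX.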

How the data were processed

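Per the labels' protocols, total RNA came from column extraction, and a SMARTer mRNA kit served for library construction. Build GRCm38.p6, DESeq2 1.44.0, RSEM 1.3.1, Bowtie2 and HISAT2 appear without roles in the submitters' processing notes. How reads were filtered or assigned to strands is not given in the sources used here. As results, the authors deposited log2 fold changes, and the deposited DESeq2 p-value and q-value (adjusted p) of each comparison were used as they stand. Blank entries numbered 215 to 272 per comparison. A Benjamini-Hochberg adjustment computed anew from the p-values differed from the q-values by at most 7.74e-05. The 3 columns share 1 direction: the sum of the first and second log2 fold changes minus the third stayed constant to within 0.01 for 18772 of 18773 genes.

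To get the implied SE, the size of a log2 fold change was divided by that of z for its 2-sided p-value, assuming an unshrunken Wald test, and 95% intervals are normal. No model was fitted anew: the authors' own results are the test, as the design planned for a table of comparisons. The members and gene lists were chosen with earlier results of these data known. The genes named were the 10, all related GTPases in the table, 7 fixed signalling genes (1 of them not reported here) and, from each other list, up to 4 genes past the threshold in any comparison, by adjusted p, or else the 1 with the smallest implied SE in CTX against UT. Cdkn1a, the neighbours, the genes nearest in pattern and those marked as named after their values were seen stand outside this rule. Gbp11 and the other listed symbols missing from the table were not analysed here. Promoters and positions are RefSeq's on GRCm38.p6, and coding sequences are the longest of each gene in GENCODE vM21 on the same build, aligned with Biopython 1.88. The work ran in Python 3.11.15 (scipy 1.17.1, pandas 2.3.3, numpy 2.4.6, matplotlib 3.10.9), and the code was tested on simulated data. Alternatives were other thresholds, centring, a limit on the SE and scaled z.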

Additional observations from a re-analysis of the deposited data

How the results depend on the processing

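No paired analysis was possible because the table holds no values per library, and for the same reason no replicate could be left out. In CTX against UT the same direction held for the 10 genes under every alternative, and the number called was 4 at an adjusted p under 0.01 (Gbp2 was lost) and 5 under each other alternative. In CAU against CTX the 1 call among the 10 (Tgtp1) and the 1 among the other 17 GTPases (Gm4070) became 0 and 0 at an adjusted p under 0.01. Of the pathway genes (10 signalling, 6 inhibitors, 9 inducers and 19 other targets), 2 were called in CTX against UT. There were 6 at an adjusted p under 0.10 (5 lower, 1 higher) and 1 at an adjusted p under 0.01. Over all 19260 genes tested, 249, 415 and 117 were called at these settings. In CAU against UT, 0 pathway genes were called, and 3, all lower and Irf1 among them, with z scaled to a spread of 1. Over all 19302 genes tested there, 10 and 255 were called. With the log2 fold changes centred on the median of all genes, Jak1 passed in CTX against UT (0.39, adjusted p = 0.0383), and 2 values near 0 changed sign, Irgm1 in CAU against UT to 0.0003 and Jak2 in CAU against CTX to -0.0028. With z scaled, Csf1r, C1qa, C1qb and C1qc also passed in CAU against UT (adjusted p = 0.0019, 0.0122, 0.0185 and 0.0178), as did Kdr, Inhbb and Upk3b. In CAU against CTX, Ifi44 (adjusted p = 0.0181), Csf1r, C1qa and Fst passed with z scaled. Single genes were followed through the alternatives only where the naming rule had picked them. Oas1a, of the same list as Ifi44 and at -2.47, was not followed, and its deposited DESeq2 p (0.000857) is smaller than that of Ifi44 (0.00143). Over all genes, the 249 calls of CTX against UT became 415 at 0.10 and 117 at 0.01, the 85 of CAU against CTX 43 at 0.01 and 237 with z scaled, and the 10 of CAU against UT 255 with z scaled. The depth of the libraries is unknown here, and the SEs of Ifng, Gvin1, 9930111J21Rik1 and 9930111J21Rik2 leave their directions unread.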

Other observations

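Gm4841, also named Ifgga3, came up as a neighbour within the chromosome 18 cluster and is described after its values were seen. It was at -1.02 (SE 0.37, adjusted p = 0.171) in CTX against UT and at 1.16 (SE 0.41, adjusted p = 0.351) in CAU against CTX per the authors' deposited table, and passed in neither. In CAU against UT it was at 0.15 (SE 0.39) per the authors' deposited table.

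In CAU against UT, the GTPases and the macrophage genes had different medians. The median of the 10 IRG and GBP genes was -0.05, and that of the 17 other GTPases -0.06. The 15 macrophage genes were all negative, with a median of -0.53, and 8 had an unadjusted p under 0.05, against 2.26% lower at that level over all genes. None of the 15 passed the authors' DESeq2 adjusted p as deposited. With z scaled to a spread of 1, only Csf1r, C1qa, C1qb and C1qc of the 15 were looked at, and they passed. That setting raised the calls over all genes from 10 to 255. The T and NK cell genes had a median of -0.07 there, with 9 of 13 negative and a median SE of 0.91. The difference between these lists was not tested.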
